A study of Mus musculus with 27 samples.

Results

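NZO/HlLtJ is the New Zealand Obese inbred mouse strain, and its hepatocytes, the metabolic cells that form most of the liver, make up 3 of the 27 samples of a DNA methylation study. Each sample came from the liver of a female mouse aged 12 weeks. The other 24 samples, 3 per strain, came from female mice of the same age of 8 other strains. These were 5 further laboratory strains (C57BL/6J, DBA/2J, A/J, NOD/ShiLtJ and 129S1/SvImJ) and 3 derived from wild mice (WSB/EiJ, PWK/PhJ and CAST/EiJ). The labels give no treatment, and no engineered allele, for any strain. They call the 3 samples of a strain biological replicates, without saying whether these were separate litters, so p-values measure the spread between these samples. NZO/HlLtJ is a single strain, so that its obesity cannot be told apart from the rest of its genome, and every test below compares these samples and not obese with lean mice.

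Methylation was read by reduced representation bisulfite sequencing, which samples CpG-rich parts of the genome after cutting with the enzyme MspI. Bisulfite leaves methylated cytosine unchanged and converts unmethylated cytosine, so that each position gets a percent methylation. All values below are percent methylation, and differences are in percentage points. In mammals, most CpGs outside CpG-rich promoters are methylated, while promoters of active genes are mostly unmethylated. Methylation of an active promoter is associated with silencing, whereas levels inside genes and at distant regulatory regions vary more between cell types and between individuals. NZO mice become obese on ordinary diets and develop insulin resistance, with a fatty liver and, in males above all, diabetes.

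The 27 files listed 5240546 positions in all, of which 1692477 were listed in every sample. These shared positions filled 63598 tiles of 1 kb with 5 or more positions each. A total of 45604 tiles, with a mean over all samples at least 2.5 points from both 0 and 100%, were tested for a difference between NZO/HlLtJ and the mean of the 8 other strain means. A tile or position was counted as called at an adjusted p under 0.05 together with a difference of 25 points or more. It was counted as set apart where, in addition, all 3 NZO/HlLtJ samples lay above, or all 3 below, all 24 other samples.

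The NZO/HlLtJ samples listed 3062352 ± 50351 positions (SD, n = 3), and the other samples listed between 2904787 and 3156965. This difference was within the spread (two-sided exact permutation p = 0.380 over 2925 arrangements, which allow a p of 0.000342 at the smallest). Mean methylation over the shared positions was 27.6% ± 0.0980 (SD, n = 3) in NZO/HlLtJ, against a range of 27.2 to 28.6% and a median of 27.7% in the others (exact permutation p = 0.431). On the X chromosome the NZO/HlLtJ mean was 45.7% (exact permutation p = 0.320). The general level of the NZO/HlLtJ livers thus lay among those of the other strains.

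Marker genes were read as a check on the labelled cell type. Of 14 hepatocyte markers 11 had shared positions (not Apoa1, Serpina1a and Cyp2e1), and 5 had them within 1 kb of the gene start. There the NZO/HlLtJ mean was 0.445% at Cebpa and 0.966% at Foxa3, both liver transcription factors. It was 0.394% at the urea cycle gene Ass1, 0.953% at the apolipoprotein gene Apoa2 and 3.05% at Hnf4a. Low starts were not limited to hepatocyte genes, as 6 of 12 measured markers of endothelial, stellate and bile duct cells were also under 10% there, among them the endothelial receptor gene Kdr at 2.96%. No immune or Kupffer cell marker had a shared position there. Over whole genes with a margin of 1 kb, the markers of other cells ranged from 3.32% at the stellate cell gene Lrat to 93.2% at the endothelial gene Tie1. In NZO/HlLtJ 11 of 11 measured hepatocyte markers and 30 of 30 measured markers of other cells lay inside the range of the 24 other samples.

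The tiles called in NZO/HlLtJ numbered 139, or 0.305% of those tested, with 53 higher (0.116%) and 86 lower (0.189%). Among them, 33 tiles were set apart (0.0724%), 15 higher (0.0329%) and 18 lower (0.0395%). Both strands of a CpG count as separate positions in these tiles. With the strands averaged, 77 of 29255 tested tiles were called and 23 were set apart. The called tiles differed by a median of 30.04 points in size, against 1.54 points over all tiles tested. An adjusted p under 0.05 without the minimum difference was reached by 1534 tiles, 598 higher and 936 lower, and an unadjusted p under 0.05 by 6060. At single positions, 1706 of 704331 were called (0.242%), 809 higher and 897 lower, and 389 were set apart (0.0552%). The count of called positions was 1108 without NZO/HlLtJ replicate 1, 863 without replicate 2 and 959 without replicate 3. The positions set apart were then 502, 359 and 403. A smaller group also lowers the power of the test, and its part in the lower counts was not tested. The position count also moved with the scale, to 734 called and 235 set apart with an offset of 1 point in place of 5, and to 3014 called on the percent scale.

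These counts use the spread among the samples of a strain. Where the 24 other samples were taken as 1 group, so that the differences among strains count as spread, 22 tiles were called and 17 of them were set apart. The same contrast run for each other strain called between 125 tiles, in 129S1/SvImJ, and 718, in PWK/PhJ. With 139, NZO/HlLtJ had the second fewest, and its 33 tiles set apart compared with 27 to 429 in the other strains. Single strains are compared here with no replicate strain, so the order of the counts was not tested.

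**Figure D1:**
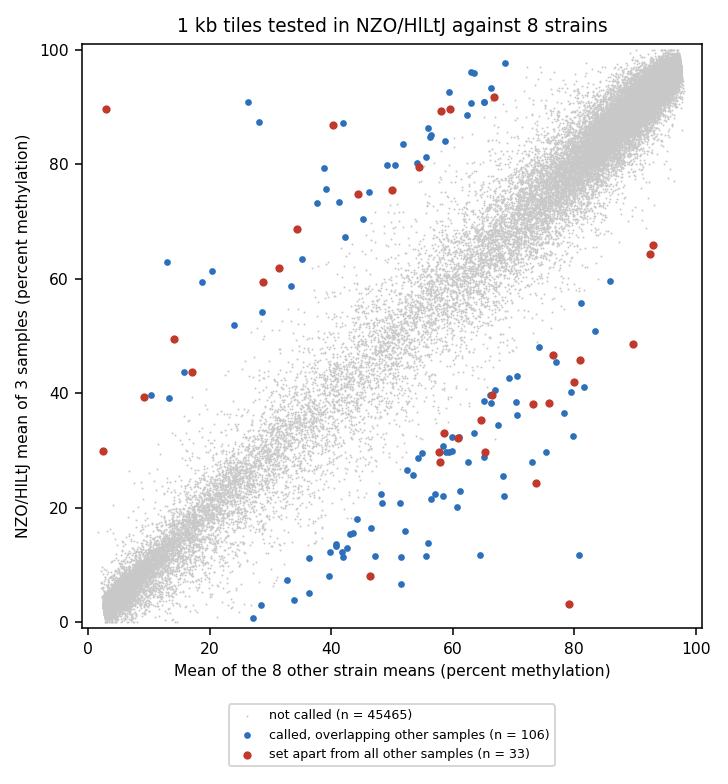
Each point is a 1 kb tile, with the mean of the 8 other strain means (percent methylation) on the horizontal axis and the mean of the 3 NZO/HlLtJ samples on the vertical axis. Of 45604 tiles, 139 are called, 33 of these set apart (red), and most called tiles lie at an intermediate mean of the other strains.

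In most called tiles the mean of the other strains was intermediate. Such a mean can also come from strains split between low and high levels. At the tile near Trarg1 described below it was 40.3%, with WSB/EiJ at 18.6% and PWK/PhJ at 77.4%. The mean of those strains was between 20 and 80% in 120 of the 139 called tiles, under 20% in 10 and over 80% in 9. Over all tiles tested, 10532 of 45604 lay in that middle range, which is also where a difference of 25 points has the most room in both directions. Protein-coding genes overlapped 62.6% of the called tiles and 67.3% of all tiles tested, and no gene overlapped 23.0% and 24.2%. With a margin of 2 kb, 136 of 17926 genes that held a tested tile had a called tile (0.759%).

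Promoter windows inside called tiles were not kept for every chromosome, so the genes given here are not a full count. Among the windows kept, those of 5 genes held shared positions, and 3 are shown because called positions lie in the promoter itself. Pafah2 had no called position there, and the window of 3110070M22Rik overlaps that of Tmem267. The sequences are given 5' to 3' on the strand of the gene from RefSeq for GRCm38.p6, from 250 bases before to 50 bases after the annotated start. Capitals mark the CpGs that were measured in all 27 samples. The Mb window, for myoglobin, lies at chr15:77050619-77050918 on the minus strand. The Tpcn2 window, for an endolysosomal cation channel, lies at chr7:145283962-145284261 on the minus strand. The Tmem267 window, for a transmembrane protein, lies at chr13:119488223-119488522 on the plus strand.
Mb: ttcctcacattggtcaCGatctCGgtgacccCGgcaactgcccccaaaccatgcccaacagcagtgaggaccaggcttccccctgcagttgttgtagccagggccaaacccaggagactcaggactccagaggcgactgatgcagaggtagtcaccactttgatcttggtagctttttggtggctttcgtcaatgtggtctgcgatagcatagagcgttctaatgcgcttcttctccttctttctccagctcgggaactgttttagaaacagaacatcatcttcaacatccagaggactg
Tpcn2: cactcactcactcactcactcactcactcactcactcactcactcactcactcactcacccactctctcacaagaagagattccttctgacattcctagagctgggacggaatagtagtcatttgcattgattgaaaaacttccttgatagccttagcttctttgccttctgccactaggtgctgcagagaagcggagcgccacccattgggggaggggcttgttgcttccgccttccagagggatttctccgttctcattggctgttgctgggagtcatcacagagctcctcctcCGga
Tmem267: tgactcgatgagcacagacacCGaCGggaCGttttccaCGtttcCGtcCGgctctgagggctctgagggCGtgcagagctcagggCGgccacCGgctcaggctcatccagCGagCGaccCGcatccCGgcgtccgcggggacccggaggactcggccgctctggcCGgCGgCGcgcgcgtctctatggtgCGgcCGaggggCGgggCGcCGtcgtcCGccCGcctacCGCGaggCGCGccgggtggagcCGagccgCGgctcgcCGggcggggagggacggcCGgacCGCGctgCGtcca

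The Mb window held 9 CG, counted as the letters CG, of which 3 were measured, all in its upstream end. Over its 5 measured positions, counting each strand, the 3 NZO/HlLtJ samples read 30, 29.6 and 35.7%. The 24 other samples read 28.0% at the lowest, 60.9% at the median and 72.1% at the highest, so the NZO/HlLtJ samples were at the low end and overlapped the lowest of the others. The tile around it, which also lies in Apol6, differed by -27.6 points (adjusted p = 8.2e-06), and NOD/ShiLtJ was on the NZO/HlLtJ side. A strain is counted on that side here and below where its mean lay on the same side as NZO/HlLtJ of the midpoint between the lowest and the highest of the 9 strain means. With the 24 other samples as 1 group the adjusted p of that tile was 0.0776.

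In the Tpcn2 window 1 of 6 CG was measured, near its downstream end. It read 46.7, 41.2 and 20.8% in the NZO/HlLtJ samples and from 0 to 22.2% in the others, with a median of 0, so that 1 NZO/HlLtJ sample overlapped the others. The Tmem267 window was far richer, with 50 CG against a median of 7 over 32851 RefSeq promoter windows of the same length, a number reached by 0.855% of them. Its 48 measured positions averaged 2.53, 3.39 and 2.79% in NZO/HlLtJ, while the other samples ran from 1.84% through a median of 33.0% to 57.8%. NZO/HlLtJ was thus at the unmethylated end of a range that several strains share. The Tmem267 tile differed by -25.3 points (adjusted p = 0.0016), close to the 25-point minimum, with CAST/EiJ, DBA/2J and PWK/PhJ on the same side. It was no longer called with the other samples as 1 group (adjusted p = 0.558), without C57BL/6J (-24.1 points), or without replicate 3 of 129S1/SvImJ (-23.9), replicate 2 of C57BL/6J (-24.3) or replicate 3 of PWK/PhJ (-24.3).

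The largest rise was an intergenic tile on chromosome 9. It lies at chr9:100446001-100447000, 2959 bases from the nearest annotated gene, the long noncoding RNA Gm28166, whose start it precedes. The NZO/HlLtJ samples read 87.8, 94.1 and 87.0%, and the other 24 samples read 0% at the lowest, 1.61% at the median and 10.7% at the highest. The groups were separated by 76.3 points. The difference was 86.8 points (adjusted p = 2.2e-11), all 14 of 14 positions were called higher, and no other strain mean exceeded the 6.39% of PWK/PhJ. With the other samples as 1 group the adjusted p was 3.7e-13.

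Ptk7 rose in adjacent tiles at and after an annotated start. Ptk7 encodes a catalytically inactive receptor tyrosine kinase-like protein that takes part in Wnt signalling and planar cell polarity. The tile at chr17:46629001-46630000 holds an annotated start at 46629504, on the minus strand, and 61 shared positions. The gene span reaches 46630049. NZO/HlLtJ samples read 50.2, 49.4 and 49.0% there, and the other samples read 2.68, 12.9 and 26.95% at the lowest, median and highest. The groups did not overlap and the difference was 35.3 points (adjusted p = 2.2e-10). All 61 positions were higher in NZO/HlLtJ and 35 were called.

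The next tile into Ptk7, chr17:46628001-46629000, had 32 positions and an NZO/HlLtJ mean of 61.9% ± 1.43 (SD, n = 3). The others lay between 14.7 and 48.4%, with a median of 32.1%, and the difference was 30.5 points (adjusted p = 1.1e-07). PWK/PhJ came closest in both tiles, with means of 24.99 and 47.5%. In the second of them 129S1/SvImJ, CAST/EiJ and PWK/PhJ were on the NZO/HlLtJ side. With the other samples as 1 group the tile at the start kept its call (adjusted p = 0.00305) and the other one did not (0.0586). Klc4, a kinesin light chain gene, adjoins Ptk7, and both tiles fall within 2 kb of it too. The RefSeq promoter window of Ptk7 held no shared position.

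**Figure D2:**
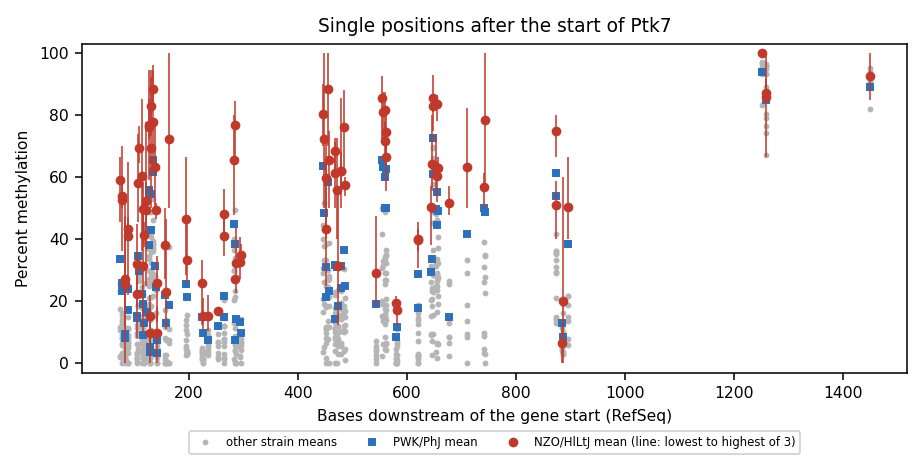
Percent methylation at single positions against bases downstream of the Ptk7 start annotated at 46629504. Red circles are NZO/HlLtJ means with lines from the lowest to the highest of 3 samples, blue squares PWK/PhJ means and grey points the means of the 7 other strains. NZO/HlLtJ lies above the strain means over most of both tiles, and all strains are high at the last positions plotted.

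Meis2, a homeobox transcription factor that partners Pbx and Hox proteins, also rose in adjacent tiles. At chr2:116062001-116063000, with 23 positions, the NZO/HlLtJ samples read 70.5, 62.8 and 72.4%, and the others read 9.11, 33.4 and 61.6% at the lowest, median and highest. The difference was 34.3 points (adjusted p = 1.8e-07), although DBA/2J, at 59.9%, came within 10 points of the NZO/HlLtJ mean of 68.6% and PWK/PhJ, at 51.1%, was on the NZO/HlLtJ side as well. At chr2:116061001-116062000 the NZO/HlLtJ mean was 89.3% ± 3.64 (SD, n = 3) and the others read 30.7, 62.1 and 79.1% at the lowest, median and highest (difference 31.3 points, adjusted p = 8.3e-07). PWK/PhJ, NOD/ShiLtJ, DBA/2J and C57BL/6J were on the NZO/HlLtJ side there. The neighbouring tile toward the gene start, with 52 positions, was low in all samples, at 8.54% in NZO/HlLtJ and a median of 8.21% in the others. Neither Meis2 tile was called with the other samples as 1 group (adjusted p = 0.209 and 0.0586).

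Tpcn2 and F2r rose near their starts from low levels. The Tpcn2 tile, chr7:145283001-145284000, ends 11 bases inside the gene start and holds 16 positions. Its NZO/HlLtJ samples read 24.5, 36.4 and 28.8%, against 0, 1.56 and 16.1% at the lowest, median and highest of the others. DBA/2J was the next strain at 10.6%, and the remaining 7 strain means were at or under 2.05%. The difference was 27.5 points (adjusted p = 4.6e-09), and it was 24.2 without NZO/HlLtJ replicate 2, under the 25-point minimum. F2r encodes the thrombin receptor PAR-1. Its tile, chr13:95617001-95618000, read 36.7, 40.0 and 41.2% in NZO/HlLtJ and 0, 8.17 and 25.3% at the lowest, median and highest of the others (difference 30.1 points, adjusted p = 0.00039), over only 5 positions, of which 1 was called.

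Inside Ifnlr1, a subunit of the receptor for interferon lambda, a tile 17 kb from the gene start was set apart at chr4:135703001-135704000. The NZO/HlLtJ samples read 92.5, 86.8 and 89.4%, and the others read 44.5, 59.7 and 76.3% at the lowest, median and highest (difference 30.02 points, adjusted p = 1.8e-07). The tile held 6 shared positions, of which 5 were higher in NZO/HlLtJ and 2 were called. In this tile 6 further positions were listed in 22 or more of the 24 other samples and in no NZO/HlLtJ sample, and 5 were listed in NZO/HlLtJ alone. A sequence difference at a CpG can change which positions are listed and what percent they show; its part in the result was not tested.

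The other high tiles lay outside genes. A tile 1337 bases from Trarg1, a regulator of glucose transporter trafficking in fat cells, averaged 86.9% ± 4.20 (SD, n = 3) in NZO/HlLtJ, at chr11:76700001-76701000. The others ran from 11.4% through a median of 29.1% to 80.01%, where CAST/EiJ and PWK/PhJ were also high at 77.0 and 77.4% (difference 46.6 points, adjusted p = 4.6e-09). Tiles 18195 bases from the lysyl oxidase gene Loxl4, 18596 bases from the long noncoding RNA D130051D11Rik and 4632 bases from Rbx1, a subunit of cullin ubiquitin ligases, rose by 30.6, 30.4 and 26.6 points (adjusted p = 1.1e-06, 3.1e-07 and 0.00091). The D130051D11Rik tile lay only 0.423 points above the highest other sample, with 129S1/SvImJ, C57BL/6J and A/J on the NZO/HlLtJ side. CAST/EiJ was on that side at the Loxl4 tile, and CAST/EiJ and WSB/EiJ at the Rbx1 tile. The Loxl4 tile kept its call with the other samples as 1 group (adjusted p = 0.000736), and the Trarg1, D130051D11Rik and Rbx1 tiles did not (0.183, 0.28 and 0.156). The Rbx1 rise was 24.8 points without NZO/HlLtJ replicate 3. Of the 16 positions of the Rbx1 tile 1 was called and 0 were set apart.

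**Figure D3:**
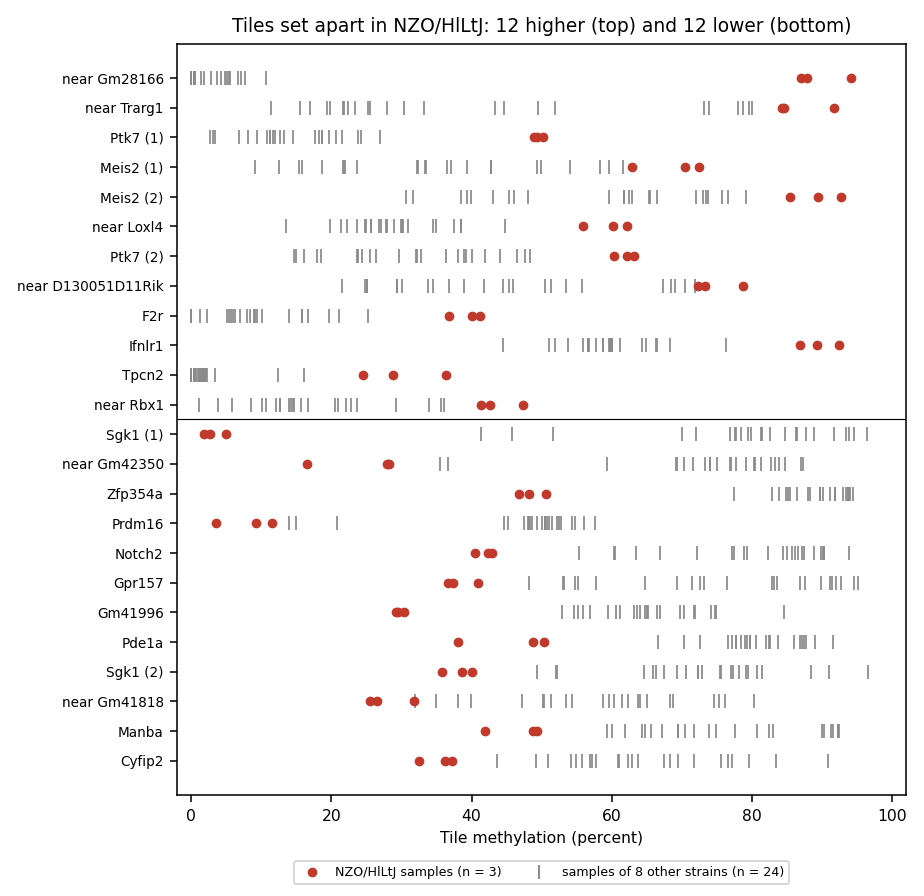
Percent methylation of the 24 named tiles in each sample, with the 3 NZO/HlLtJ samples as red circles and the 24 other samples as grey ticks. The tiles were chosen among those set apart, so that in each row the red circles lie beyond all grey ticks by that rule. The distance is 76.3 points at the top row and 0.198 points near Gm41818.

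The largest fall was in Sgk1, the serum- and glucocorticoid-regulated kinase, which is activated downstream of phosphatidylinositol 3-kinase by insulin and promotes sodium transport. The tile chr10:21997001-21998000 lies about 3 kb after the nearest annotated start, at 21994666 on the plus strand. The gene span itself begins further upstream, at 21882184. Its NZO/HlLtJ samples read 2.68, 5.00 and 1.82%, and the other 24 read 41.4, 81.4 and 96.4% at the lowest, median and highest. The difference was -76.0 points (adjusted p = 6.1e-12), and all 5 positions were called and set apart. These lie close together, from 21997913 to 21997934, and are not all separate CpGs. Positions 21997920 and 21997921 are both strands of the same CpG, as are 21997933 and 21997934. CAST/EiJ was the only strain on the NZO/HlLtJ side, at 46.2%, and the other 7 strain means were between 76.1 and 94.8%. With the other samples as 1 group the adjusted p was 1.4e-06.

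The next Sgk1 tile, chr10:21998001-21999000, fell by 35.0 points, from 40.1, 38.7 and 35.7% in the NZO/HlLtJ samples against 49.4, 74.2 and 96.6% at the lowest, median and highest of the others (adjusted p = 4.0e-07; 0.0709 with the other samples as 1 group). Its 11 positions were uneven. At position 21998022 the NZO/HlLtJ mean was 3.21% and CAST/EiJ was at 8.35%. At position 21998954 the NZO/HlLtJ mean was 75.3%, the difference was -14.1 points, and the adjusted p was 0.588. Over both tiles 10 of 16 positions were called, and these were the 10 nearest to the annotated start at 21994666.

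**Figure D4:**
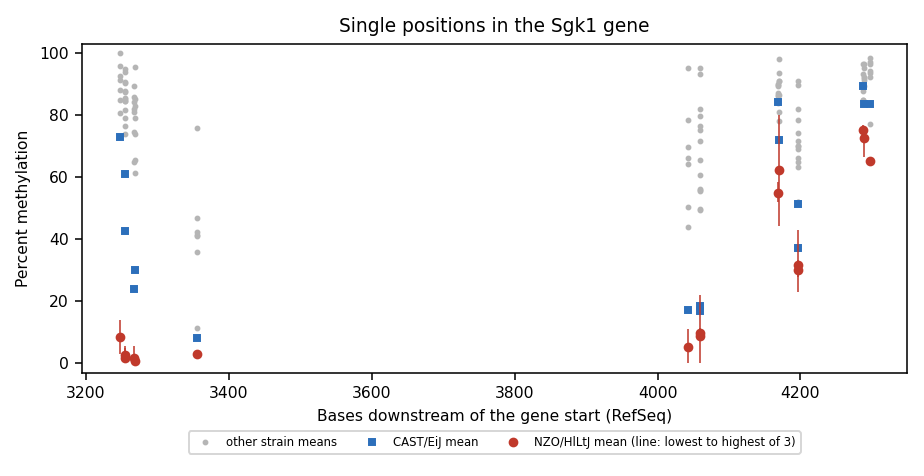
Percent methylation at 16 single positions of Sgk1 against bases downstream of the annotated start at 21994666. Red circles are NZO/HlLtJ means with lines from the lowest to the highest of 3 samples, blue squares CAST/EiJ means and grey points the means of the 7 other strains. NZO/HlLtJ is at 8.67% or less at the first 6 positions and at 65.2% or more at the last 3, while CAST/EiJ falls between it and the others at most positions.

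Zfp354a, Prdm16, Notch2 and Pde1a fell inside the gene. Zfp354a, a zinc-finger protein gene, read 46.8, 50.7 and 48.2% in NZO/HlLtJ at chr11:51060001-51061000, against 77.4, 90.7 and 94.4% at the lowest, median and highest of the others. The groups were 26.7 points apart, no other strain was on the NZO/HlLtJ side, and the difference was -41.1 points (adjusted p = 5.6e-10). The adjoining tile, which holds an end of the gene span, at 51059225, was at 0.361% in NZO/HlLtJ and at a median of 0.917% in the others.

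Prdm16, a transcriptional regulator needed for brown fat identity, read 11.5, 9.21 and 3.54% in NZO/HlLtJ at chr4:154527001-154528000, in the body of the gene. The others ran from 14.0% through a median of 50.2% to 57.6% (difference -38.3 points, adjusted p = 2.6e-10). PWK/PhJ was low as well, at 16.5%, while the 7 other strain means were between 46.9 and 53.5%. The next tile of Prdm16 was at 84.2% in NZO/HlLtJ and did not pass the test (adjusted p = 0.858). Both the Zfp354a and the Prdm16 tile kept their call with the other samples as 1 group (adjusted p = 7.0e-07 and 0.000993).

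Notch2, a receptor needed for bile duct formation, read 42.4, 42.9 and 40.5% at chr3:98071001-98072000, against 55.3, 84.7 and 93.9% at the lowest, median and highest (difference -38.1 points, adjusted p = 2.8e-06). Pde1a, a calmodulin-dependent phosphodiesterase of cyclic nucleotides, read 38.0, 50.4 and 48.8% at chr2:80038001-80039000, a tile that holds an annotated start at 80038902, against 66.7, 80.2 and 91.6% (difference -35.2 points, adjusted p = 3.1e-07). No other strain was on the NZO/HlLtJ side at Pde1a, and WSB/EiJ alone was at Notch2. Both kept their call with the other samples as 1 group (adjusted p = 0.017 for Notch2 and 9.0e-05 for Pde1a). Each tile held 6 positions, of which 3 were called at Notch2 and 4 at Pde1a.

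Further falls were shared more widely. Gpr157, an orphan G protein-coupled receptor gene, fell by 37.6 points, the lysosomal beta-mannosidase gene Manba by 29.9 and Cyfip2, of the actin-regulating WAVE complex, by 29.3 (adjusted p = 9.7e-06, 0.00019 and 5.0e-06). Between 2 and 4 other strains were on the NZO/HlLtJ side in these 3 tiles, and none kept its call with the other samples as 1 group (adjusted p = 0.193, 0.194 and 0.124). Without CAST/EiJ and PWK/PhJ the Cyfip2 difference was -24.0 points, and 2 positions of that tile were listed in nearly all other samples and in no NZO/HlLtJ sample.

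Among long noncoding RNAs, the tile 25 bases upstream of Gm42350 fell by 49.5 points, that in Gm41996 by 35.6 and that near Gm41818 by 30.04 (adjusted p = 2.0e-06, 1.3e-07 and 0.00016). The Gm42350 tile read 16.6, 27.9 and 28.2% in NZO/HlLtJ, and DBA/2J was the next lowest strain at 47.5%. The Gm41996 tile read 29.5, 30.3 and 29.2%, well clear of the lowest other sample at 52.9%, and 2 positions there were listed in nearly all other samples and in none of NZO/HlLtJ. The Gm41818 tile lay only 0.198 points below the lowest other sample and had no called position. With the other samples as 1 group the first 2 kept their call (adjusted p = 0.00127 and 0.000157) and the Gm41818 tile did not (0.12).

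Of the 24 named tiles, 13 were called with the other samples as 1 group and 11 were not. The windows of 1 Mb with the most tiles set apart, 2 each, were those of Meis2 on chromosome 2, Sgk1 on chromosome 10 and Ptk7 on chromosome 17, and in each the 2 tiles lay side by side. The largest number of called tiles within 2 kb of any gene was 2, reached by 8 genes, which beside Meis2, Ptk7, Sgk1 and Klc4 were Anks1, Gm35290, Gipc1 and Hspg2.

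Gipc1, an adaptor for membrane protein trafficking, fell in both of its called tiles, by 46.4 and 29.9 points (adjusted p = 1.9e-07 and 5.5e-06). C57BL/6J was on the same side in both, and both were called with the other samples as 1 group (adjusted p = 0.0366 and 0.0419). Hspg2, which encodes the basement membrane proteoglycan perlecan, fell by 36.3 and 26.1 points (adjusted p = 2.0e-09 and 0.00011), together with 129S1/SvImJ, C57BL/6J and NOD/ShiLtJ. Anks1, an adaptor with ankyrin repeats, rose by 40.9 and 33.1 points (adjusted p = 6.9e-07 and 0.00021), together with C57BL/6J and NOD/ShiLtJ, and the long noncoding RNA Gm35290 lies within 2 kb of the same tiles. With the other samples as 1 group the Hspg2 tiles had adjusted p = 0.746 and 0.767 and the Anks1 tiles 0.369 and 0.58. Without CAST/EiJ and PWK/PhJ the smaller Hspg2 difference was -19.8 and the smaller Anks1 difference 22.8 points, and without NZO/HlLtJ replicate 1 the former was -24.7.

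In most called tiles NZO/HlLtJ shared its side with other strains. No other strain was on the NZO/HlLtJ side in 12 of the 139 called tiles, 1 was in 22, 2 in 36, 3 in 26, 4 in 21, 5 in 20 and 6 in 2. DBA/2J and NOD/ShiLtJ shared the NZO/HlLtJ side most often, in 59 tiles each (42.4%), and CAST/EiJ least often, in 28 (20.1%). C57BL/6J shared it in 52 tiles, A/J in 49, 129S1/SvImJ in 44, WSB/EiJ in 39 and PWK/PhJ in 38. These shares describe the called tiles and carry no test. The same shares over all tiles tested are not given, so the order is not read as likeness of a strain to NZO/HlLtJ.

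By chromosome, called tiles were most frequent on chromosome 4, with 18 of 3433 tested tiles (0.524%), and on chromosome 17, with 11 of 2147 (0.512%). The directions differed between them, as chromosome 4 had 5 higher and 13 lower tiles and chromosome 17 had 8 higher and 3 lower. Called tiles on chromosomes 6 and 12 were all lower, 5 and 4 in number. The lowest shares among the autosomes and chromosome X were on chromosome X, with 1 of 1587 tiles (0.0630%), and chromosome 1, with 2 of 2478 (0.0807%). Tiles of a chromosome are not independent, and these shares were not tested. The files also list chromosome Y positions in all 27 samples, although the labels give every mouse as female. They filled 4 tested tiles, of which 0 were called; the source of their reads was not tested, and they are not read here as methylation of that chromosome.

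**Figure D5:**
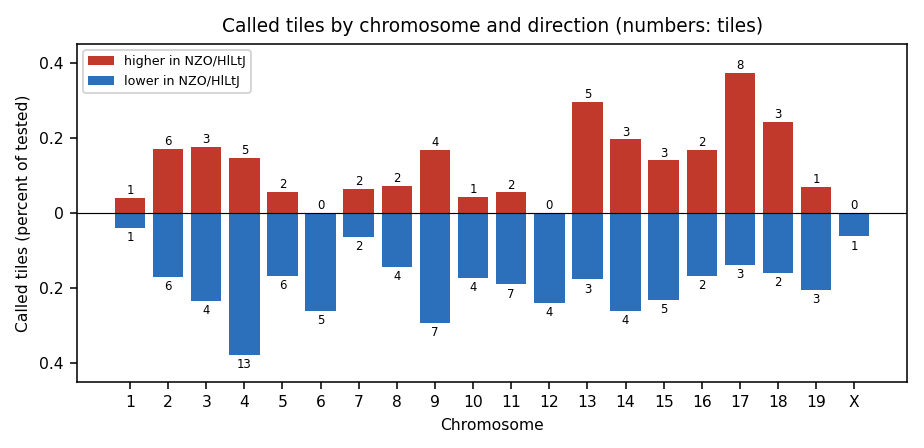
Bars give the called tiles as percent of the tiles tested on each chromosome, upward for tiles higher and downward for tiles lower in NZO/HlLtJ, with the number of tiles at each bar. Chromosome 17 has the tallest bar upward (8 tiles) and chromosome 4 the longest downward (13 tiles).

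On chromosome 4 the called tiles lay mostly in the distal part. From 133 Mb on, a bound chosen after the values were seen, 16 of 1599 tested tiles were called (1.00%), 12 of them lower, against 2 of 1834 (0.109%) on the rest of the chromosome. The stretch includes the tiles of Prdm16, Gpr157, Gm42350, Hspg2 and Ifnlr1 described above. It also includes lower tiles in Arhgef19, Crocc, Zbtb48, Pafah2, Sfn and Ahdc1, and higher tiles in Crybg2, Man1c1 and Draxin. The same stretch had called tiles in the contrast of every other strain, from 0.438% of its tiles in 129S1/SvImJ to 1.94% in CAST/EiJ. In number these were from 7 in 129S1/SvImJ to 31 in CAST/EiJ, and C57BL/6J had 16, as NZO/HlLtJ did. As a share of all called tiles of a strain, the stretch held 11.5% in NZO/HlLtJ and 2.79 to 9.25% in the others. It held 1599 of all 45604 tiles tested. The bound was chosen on the NZO/HlLtJ tiles, so no conclusion is drawn from the order of these shares.

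Metabolic genes were examined through lists of insulin signalling, lipid, cholesterol, glucose, fatty acid oxidation and obesity genes, counting a gene as called where a called tile lay within 2 kb. The lists here and below were chosen with earlier results of these data known. A called member is therefore no independent support for its list, and the shares were not tested. Of 21 measured insulin and IGF signalling genes out of 28, 1 was called, Sgk1, while 0.759% of all genes with a tested tile were. Of the list's 93 tiles, 12.9% had an unadjusted p under 0.05, against 13.3% of all tiles tested, and the median difference was -0.497 points, against -0.198. Trib3, a pseudokinase that binds Akt, differed by -14.8 points (adjusted p = 0.025), under the 25-point minimum. Its NZO/HlLtJ mean of 37.0% lay inside the range of the other samples, 13.9 to 73.3%. C57BL/6J, DBA/2J and WSB/EiJ were on the NZO/HlLtJ side. Insr, the insulin receptor, and Irs2, its main docking protein in liver, had 3 and 5 tested tiles and are given by a single tile each. These differed by -1.67 and -4.81 points. These tiles did not pass the test (adjusted p = 0.454 and 0.685).

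Among 17 measured cholesterol and lipoprotein genes of 26, 1 was called, Ldlrad3, a member of the low-density lipoprotein receptor family, against 0.759% of all genes. An unadjusted p under 0.05 was reached by 16.3% of the list's 43 tiles, against 13.3% of all tiles. Its tile at chr2:102113001-102114000 read 96.4, 91.9 and 99.4% in NZO/HlLtJ, against 0, 81.9 and 98.0% at the lowest, median and highest of the others. All but 129S1/SvImJ, C57BL/6J and CAST/EiJ were on the same side, and without C57BL/6J the difference was 24.8 points, under the minimum, so that the 32.3 points (adjusted p = 1.2e-05; 0.829 with the other samples as 1 group) rested in part on that strain. Srebf2, the transcription factor of sterol synthesis, had tiles of -18.6 and -9.10 points (adjusted p = 0.035 and 0.0016), neither reaching the minimum. The other samples ran from 28.2 to 90.2% in the first and from 5.38 to 50.8% in the second, and every other strain but PWK/PhJ was on the NZO/HlLtJ side in both.

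None of 14 measured glucose and glycogen genes of 19 was called, where 0.759% of all genes were. An unadjusted p under 0.05 was reached by 6 of their 23 tiles (26.1%), against 13.3% of all tiles, which was not tested. The tile with the largest difference belonged to Pck1, the rate-limiting enzyme of gluconeogenesis. It read 7.48, 2.45 and 2.38% in NZO/HlLtJ, against 5.84, 23.3 and 44.6% at the lowest, median and highest of the others (difference -19.4 points, adjusted p = 0.0032), so that the groups overlapped by 1 NZO/HlLtJ sample. PWK/PhJ and WSB/EiJ were low there too.

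No gene was called among 18 measured lipogenesis and lipid storage genes of 27 or among 16 fatty acid oxidation genes of 20, where 0.759% of all genes were. Plin4, a lipid droplet coat protein, read 17.04, 21.8 and 23.1% in NZO/HlLtJ, against 21.1, 33.1 and 46.6% at the lowest, median and highest of the others (difference -12.4 points, adjusted p = 0.0034). Ucp2, a carrier of the inner mitochondrial membrane, differed by 7.59 points (adjusted p = 0.0073). Its NZO/HlLtJ mean of 20.3% lay inside the range of the other samples, 0.752 to 31.4%. There 129S1/SvImJ, A/J and NOD/ShiLtJ were on the NZO/HlLtJ side. Fasn, fatty acid synthase, and Srebf1, its regulator, had 6 and 3 tested tiles and are given by a single tile each. These differed by -10.2 and -4.10 points, and neither passed the test (adjusted p = 0.197 and 0.781). In these lists 12.3 and 13.6% of tiles had an unadjusted p under 0.05, near the 13.3% of all tiles.

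Among obesity and appetite genes, 19 of 24 were measured and none was called, where 0.759% of all genes were. An unadjusted p under 0.05 was reached by 13.1% of their 61 tiles, against 13.3% of all tiles. The largest difference was at the leptin gene Lep, at 58.1% ± 2.86 (SD, n = 3) in NZO/HlLtJ against 50.4, 71.4 and 81.1% at the lowest, median and highest of the others (difference -12.2 points, adjusted p = 0.099). Of 7 genes named in mapping crosses of NZO mice, Tbc1d1, Zfp69, Abcg1 and Nmur2 were measured, with 15 tiles. None of these tiles had an unadjusted p under 0.05, against 13.3% of all tiles, and their largest difference was 8.59 points, at the Rab GTPase-activating protein gene Tbc1d1 (adjusted p = 0.491).

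All 20 imprinted genes, whose methylation normally depends on the parent of origin, were measured, and none was called, where 0.759% of all genes were. An unadjusted p under 0.05 was reached by 13.8% of their 65 tiles, against 13.3% of all tiles. Mest, expressed from the paternal allele, came closest at chr6:30732001-30733000. It read 26.3, 26.6 and 27.2% in NZO/HlLtJ, against 19.4, 42.9 and 86.9% at the lowest, median and highest of the others, a difference of -24.6 points (adjusted p = 0.0010) just under the minimum. WSB/EiJ, DBA/2J, C57BL/6J, A/J and 129S1/SvImJ were on the NZO/HlLtJ side there. A tile of Impact, which encodes a regulator of the kinase Gcn2, also passed the adjusted p, at 0.722% against a median of 6.03% in the others (difference -7.03 points, adjusted p = 0.0031), with every other strain but A/J and CAST/EiJ on the NZO/HlLtJ side. Peg3, Snrpn and H19, with 3, 2 and 2 tested tiles, are given by a single tile each. These were near intermediate levels, at 42.4, 49.8 and 47.3%, and did not pass the test (adjusted p = 0.735, 0.414 and 0.770).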

How the data were processed

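Groups are the strains given in the labels. Per the submitters' processing notes the tools were Trim Galore 0.6.3, Bowtie2 and Bismark 0.22, and the build GRCm38 (mm10), with no role or order given. The authors deposited percent methylation per position, per the file headers, without read counts, so that depth cannot be known and intervals of counting error are not given. Whether reads of each strain were aligned to a genome of that strain is not given in the sources used here. In promoter windows 241837 of 241842 shared positions lay in a CG of the RefSeq sequence. The C57BL/6J files name the mitochondrial chromosome M and the others MT.

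The test was the moderated contrast of limma (3.58.1, R 4.3.3; computed in Python 3.11.15 and checked against limma, with 0 of 45604 tiles on different sides of the threshold) on log2((percent + 5)/(100 - percent + 5)), with strain as a factor and 18 residual degrees of freedom, with Benjamini-Hochberg adjustment over all tiles or positions tested. On simulated tiles it called 96.0% of rises and 99.0% of falls of 30 points. There NZO/HlLtJ was set at the mean of the other strains before the shift, with normal noise of the same spread in all strains. These rates check the computation and do not give the sensitivity in these data. Gene spans come from RefSeq GRCm38.p6; exons and introns were not used here. Named were the 12 largest rises and 12 largest falls among tiles set apart, list genes with a called tile, genes with the most called tiles and the 1 Mb windows with the most tiles set apart. Promoter windows, list genes below the minimum and the distal part of chromosome 4 were chosen after their values were seen. The comparison, the members and the lists were chosen with earlier results of these data known. The closing section gives the alternatives.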

Additional observations from a re-analysis of the deposited data

How the results depend on the processing

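Mean level and number of listed positions stayed within the spread under the alternatives tried for them: leaving out each sample in turn gave differences of the mean of -0.2681 to -0.1708 points and of 12140 to 62280 listed positions. Leaving out each sample gave 134 to 146 tiles called, 31 to 48 set apart, 863 to 1791 positions called and 359 to 502 positions set apart. Samples with the same replicate number did not deviate together (correlations of -0.0117 to 0.0132 over 19 pairs with NZO/HlLtJ), so the numbers were not taken as pairs. With the replicate block 137 tiles and 1291 positions were called, and 33 and 347 set apart. With the other samples as 1 group, 22 tiles and 306 positions were called, 17 and 209 of them set apart. With an offset of 1 point, 734 positions were called and 235 set apart, and on the percent scale 3014 positions were called. A minimum of 10 points gave 1002 tiles called and 114 set apart, and one of 50 points gave 6 and 2 tiles and 360 and 123 positions. Tiles of 3 or more positions gave 249 called and 58 set apart (34.5% of these higher, against 45.5%), and tiles of 10 or more gave 41 and 16 (62.5% higher). Without C57BL/6J 44 tiles were set apart, 31.8% of them higher. Without CAST/EiJ and PWK/PhJ 127 tiles were called, 47.2% of them higher (against 38.1%), and 49 were set apart, 53.1% of them higher. Averaging the strands of a CpG, chosen after seeing the data, gave 77 tiles called and 23 set apart of 29255 tested. Leaving out tiles with a position listed in nearly all other samples and in no NZO/HlLtJ sample, also chosen after seeing the data, left 129 called and 30 set apart. Such a position was held by 10 of the called tiles and 3 of those set apart. The lower counts follow from their removal and do not test the part of listing in the calls. For 33 named tiles, 1093 of 1122 values kept their call and direction, 29 lost the call and none was reversed. With the other samples as 1 group, 18 of the 33 tiles lost the call. Most of the other values came from leaving out 1 sample, and most of the tiles were named for their large differences in these same data. The 1093 values are therefore no independent support for the named tiles. Without read counts, the precision of a single position cannot be given.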

Other observations

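The remaining 9 tiles set apart differed by 25.02 to 28.6 points in size. Lower in NZO/HlLtJ were tiles in Itpr2, the main inositol trisphosphate receptor of hepatocytes (-28.1 points), the orphan receptor gene Gpr179 (-27.9), the chromatin protein gene Bahcc1 (-26.7) and Ahdc1 (-25.6), and tiles in or near the noncoding genes Gm33644 (-28.6) and Gm46936 (-27.1). Higher were a tile in the noncoding gene Gm34372 (25.5 points), a tile near Rell1 (25.04) and a tile in the pseudogene Ppp1r2-ps4 (25.02). Itpr2 read 66.8, 59.6 and 66.4% in NZO/HlLtJ against 71.2, 95.4 and 98.9% at the lowest, median and highest of the others.

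Listing itself differed between strains. In NZO/HlLtJ 5112 positions were listed in that strain alone and 3221 were absent in that strain alone, against 3204 to 103624 and 2523 to 72191 in the other strains. Positions listed in 22 or more of the 24 other samples and in no NZO/HlLtJ sample occurred in 7.19% of the called tiles, 9.09% of those set apart and 0.967% of all tiles tested. Positions listed in NZO/HlLtJ alone occurred in 2.88, 6.06 and 0.463%. Their part in the calls was not tested.

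A stretch of ribosomal RNA sequence on chromosome 17 held 695 shared positions. It averaged 7.96% ± 0.246 (SD, n = 3) in NZO/HlLtJ, against 6.59% at the lowest, 14.3% at the median and 46.4% at the highest of the other samples, so that NZO/HlLtJ was near the low end.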
